A study of Mus musculus with 9 samples.

Results

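The genes of the major histocompatibility complex (MHC) and of antigen processing were followed in the hearts of 3 groups of mice. The members were all 38 gene names of the deposited tables that begin with H2-, together with B2m, Cd74, Tap1, Tap2, Tapbp, Psmb8, Psmb9 and Psmb10, 46 of 41710 gene names in all. By name, 27 of the H2- genes belong to class I, 10 belong to class II, and H2-Ke6, which encodes a short-chain dehydrogenase, belongs to neither. Of the 46 members, 35 passed the expression filter and were tested beside all other genes, with 15504 genes tested in total. Of the 35, H2-M9 and H2-Oa passed the filter through the Tg-RKIP libraries alone and so had to be higher there. The main counts of members that compare Tg-RKIP with another group are given with and without them. Counts under other settings are not repeated without them. The other 11 were too weak for a test. Of these, 7 held 3 reads or fewer in every library and 5 of them no read at all, while H2-M2, H2-M5, H2-M11 and H2-Eb2 held between 4 and 10 reads in their highest library.

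The hearts came from male FVB/N mice of 8 months, with 3 libraries in each group: Tg-RKIP mice, mice labelled Tg-GRK2, and FVB/N controls without a transgene, here called FVB. The RKIP transgene is driven in the myocardium by the alpha-MHC promoter, in which MHC stands for myosin heavy chain. The cells meant to express it are thus cardiomyocytes and not the immune cells in which class II genes are mainly used. The promoter of the GRK2 transgene is not given in the sources used here. Whole hearts were pulverised, and each library therefore mixes the RNA of all cells of the organ. The labels number the replicates of a group 1 to 3, and p-values measure the spread between these libraries. That the replicates are 3 separate hearts is given by the paper for Tg-RKIP and FVB, not by the labels.

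Libraries held 25458108 to 33447654 reads on transcripts. Reads of Pebp1, the gene of RKIP, numbered 252196 to 321666 in Tg-RKIP libraries and 7140 to 8446 in FVB libraries. Grk2 was at 27.3 ± 2.90 TPM (SD, n = 3) in hearts labelled Tg-GRK2 and at 27.1 ± 1.05 TPM (SD, n = 3) in FVB, so the transcript level did not mark these libraries as carriers of the transgene, and they are named by their label throughout. All 9 cardiomyocyte markers were present in every library, with summed levels of 59350 to 64110 TPM. The share of reads from mitochondrially encoded genes was 11.7% ± 0.156 (SD, n = 3) for Tg-RKIP, 22.6% ± 0.299 (SD, n = 3) in hearts labelled Tg-GRK2 and 23.1% ± 0.158 (SD, n = 3) in FVB.

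The comparison of Tg-RKIP and FVB hearts depended on how the libraries were scaled. TPM values, which correct reads for the length of each transcript and bring every library to a common total, are used for levels. Fold changes are those of counts scaled by the TMM method, which centres the bulk of the genes, and they are given on the log2 scale with their standard error and an adjusted p-value from edgeR. Between Tg-RKIP and FVB the median log2 fold change over all genes came to 0.0085 with TMM, to 0.38 with scaling to the library total only and to 0.43 on log2(TPM + 0.1). The number of all genes called higher and lower in Tg-RKIP was 5709 and 5751 with TMM, 9710 and 2649 with the library total, and 8932 and 1964 on TPM. A fold change with TMM is thus a change relative to the typical gene. Relative to the median of all genes, TMM and the library total give nearly the same values by construction, since they differ by a constant for each library. Between these and log2(TPM + 0.1), 28 of the 30 members with a value under each lay on the same side of the median, the exceptions being H2-Ea and H2-T23.

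Class I molecules present peptides from proteins made inside a cell and are found on almost all nucleated cells. Their heavy chain pairs with beta-2-microglobulin, the product of B2m, and is loaded in the endoplasmic reticulum with peptides that were cut by the proteasome, carried in by the transporter of Tap1 and Tap2, and offered by tapasin, the product of Tapbp. Class II molecules present peptides from engulfed material and are mainly a feature of dendritic cells, macrophages and B cells. They travel with the invariant chain, Cd74, and exchange its remnant for a peptide with the help of H2-DM. FVB mice carry the q haplotype of the complex, in which no H2-E protein is displayed because H2-Ea is defective.

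As deposited for build GRCm39, the H2- names lie between 34214991 and 37794443 on chromosome 17. Tapbp (34134873 to 34148266), Psmb9 (34400961 to 34406738), Tap1 (34406527 to 34416199), Psmb8 (34416695 to 34420428) and Tap2 (34422501 to 34435295) lie in or beside the same stretch. B2m lies on chromosome 2 (121978167 to 121983564) and Psmb10 on chromosome 8 (106662367 to 106665076).

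The sequence before the start of 37 of the 46 members was found in a table of RefSeq promoters of build GRCm38.p6, which is not the build of the deposited coordinates and holds the reference strain, not FVB. The windows, of 250 bases before the annotated start and 50 after it, were searched on both strands for the Y box CTGATTGG, for the class I interferon response letters GAAGTGAAA and for the ISRE letters GAAANNGAAA, the last 2 of which can share bases. The Y box letters stood in 4.10% of all 32851 windows and in those of 19 of the 37 members. GAAGTGAAA stood in 0.505% of all windows and in those of 7 members, all of them class I heavy chains, namely H2-D1, H2-K1, H2-M3, H2-Q10, H2-Q4, H2-Q6 and H2-Q7. GAAANNGAAA stood in 3.44% of all windows and in those of B2m, H2-T22 and H2-T23. A match describes letters and does not show that a factor binds there.

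The sequences of 7 members that the results below turn on are shown so that the class I and class II starts can be compared. Each is 5′ to 3′ on the strand of the gene, ends at the annotated start (for H2-K1 2 bases after it), and carries in capitals every match to the 3 searched strings on either strand. Another start is also listed for H2-K1, and the start shown was chosen because it lies closer to the searched letters. H2-K1 is at chr17:34000332-34000583 on the minus strand, H2-D1 at chr17:35262844-35263093 on the plus strand, H2-Q7 at chr17:35438905-35439154 on the plus strand, B2m at chr2:122147437-122147686 on the plus strand, Tap1 at chr17:34187306-34187555 on the plus strand, H2-Aa at chr17:34287824-34288073 on the minus strand, and H2-Eb1 at chr17:34305617-34305866 on the plus strand.
H2-K1: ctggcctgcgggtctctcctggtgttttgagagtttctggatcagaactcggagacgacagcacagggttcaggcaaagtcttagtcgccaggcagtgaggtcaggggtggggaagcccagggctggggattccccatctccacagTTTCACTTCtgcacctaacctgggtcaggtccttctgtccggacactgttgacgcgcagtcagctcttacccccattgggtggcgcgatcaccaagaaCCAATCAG
H2-D1: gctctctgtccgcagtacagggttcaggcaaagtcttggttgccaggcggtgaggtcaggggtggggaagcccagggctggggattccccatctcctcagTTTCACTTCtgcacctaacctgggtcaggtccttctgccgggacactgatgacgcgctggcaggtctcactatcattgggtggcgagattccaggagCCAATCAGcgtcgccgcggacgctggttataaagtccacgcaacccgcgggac
H2-Q7: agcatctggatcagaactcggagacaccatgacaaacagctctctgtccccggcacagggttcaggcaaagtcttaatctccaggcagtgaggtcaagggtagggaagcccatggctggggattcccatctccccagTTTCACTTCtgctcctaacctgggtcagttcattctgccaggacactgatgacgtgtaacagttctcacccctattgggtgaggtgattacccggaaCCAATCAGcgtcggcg
B2m: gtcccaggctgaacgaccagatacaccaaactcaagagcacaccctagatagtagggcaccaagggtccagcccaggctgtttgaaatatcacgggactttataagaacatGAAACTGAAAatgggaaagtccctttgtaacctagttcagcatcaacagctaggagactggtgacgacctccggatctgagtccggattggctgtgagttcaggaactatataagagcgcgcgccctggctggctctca
Tap1: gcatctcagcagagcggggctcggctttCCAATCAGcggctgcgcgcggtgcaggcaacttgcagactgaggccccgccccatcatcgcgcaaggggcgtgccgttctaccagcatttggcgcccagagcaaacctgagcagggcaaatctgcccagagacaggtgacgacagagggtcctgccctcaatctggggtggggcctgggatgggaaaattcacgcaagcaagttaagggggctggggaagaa
H2-Aa: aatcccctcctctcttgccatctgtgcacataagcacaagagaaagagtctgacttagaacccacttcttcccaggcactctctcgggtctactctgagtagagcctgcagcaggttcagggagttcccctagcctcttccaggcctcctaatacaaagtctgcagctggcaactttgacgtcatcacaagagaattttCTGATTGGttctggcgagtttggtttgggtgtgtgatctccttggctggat
H2-Eb1: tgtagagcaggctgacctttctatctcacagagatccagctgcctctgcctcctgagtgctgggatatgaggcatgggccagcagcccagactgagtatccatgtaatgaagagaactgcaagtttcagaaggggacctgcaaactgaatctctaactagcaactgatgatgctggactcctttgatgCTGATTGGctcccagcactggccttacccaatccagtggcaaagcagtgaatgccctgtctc

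The 3 class I heavy chains H2-K1, H2-D1 and H2-Q7 hold both the interferon response letters and, nearer the start, the Y box, both of them on the strand opposite to the gene. The first bases of the 2 matches lie 98 bases apart in H2-K1 and 97 bases apart in H2-D1 and H2-Q7. The class II genes H2-Aa and H2-Eb1 hold the Y box on the strand of the gene, from 51 and 62 bases before the start, and neither of the other strings. B2m holds the ISRE letters from 139 bases before the start. The Tap1 window runs into that of Psmb9, which is read in the other direction, and the 2 windows of 300 bases share 275 bases.

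Class I transcripts were the more abundant kind in all groups. Summed over the 27 class I genes, TPM was 789, 788 and 783 in the FVB libraries, 462.5, 473 and 465 in hearts labelled Tg-GRK2, and 987, 970.0 and 989 in the Tg-RKIP libraries. Class II sums over 10 genes were 265, 252 and 263 TPM in FVB, 101, 102 and 99.4 TPM in hearts labelled Tg-GRK2, and 469, 460.5 and 466 TPM in Tg-RKIP. No library of a group overlapped with a library of another group in either sum.

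Relative to FVB, the summed class I level in hearts labelled Tg-GRK2 was 0.593 ± 0.00687 times (SD, n = 3) and the class II level 0.387 ± 0.00458 times (SD, n = 3). On TMM-normalised counts these ratios were 0.571 and 0.381, so that scaling mattered little here. In Tg-RKIP hearts the class II sum was 1.79 ± 0.0162 times (SD, n = 3) the FVB level on TPM and 1.29 times on TMM-normalised counts, and the class I sum was 1.25 ± 0.0136 times (SD, n = 3) on TPM but 0.912 times on TMM-normalised counts and 0.975 times when mitochondrial genes were left out of the TPM. The ratio of the class II to the class I sum within a library does not depend on how libraries are scaled, and in TPM was 0.473 ± 0.00237 in Tg-RKIP, 0.331 ± 0.00909 in FVB and 0.216 ± 0.00254 in hearts labelled Tg-GRK2 (SD, n = 3 each).

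**Figure D1:**
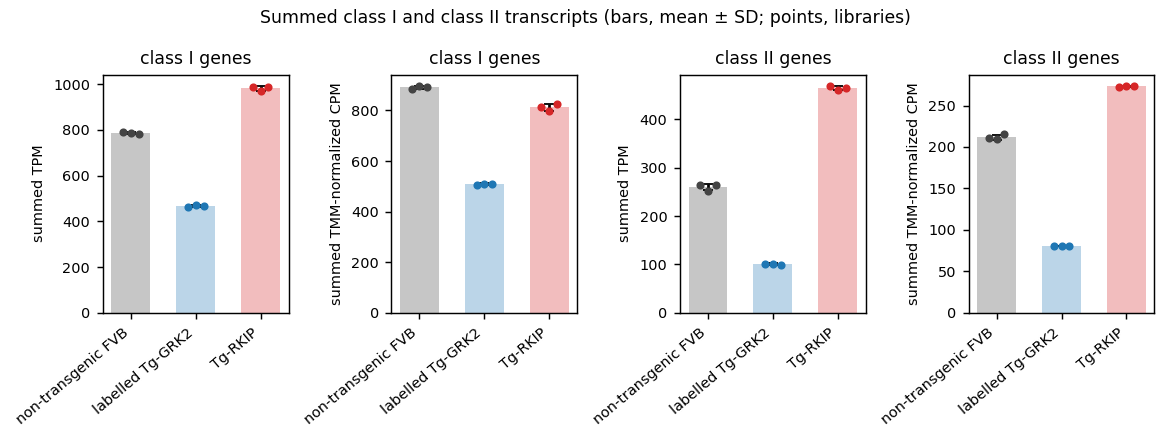
Summed levels of 27 class I and 10 class II genes in each library as TPM and as TMM-normalised CPM (bars, mean; error bars, SD; points, 3 libraries a group; axes from 0). The libraries labelled Tg-GRK2 are lowest in all 4 panels, and the Tg-RKIP libraries lie above FVB for class II on both scales but above FVB on TPM and below it on TMM counts for class I.

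In the comparison of hearts labelled Tg-GRK2 with FVB, 28 of the 35 tested members were lower and none was higher, at an adjusted p under 0.05 from edgeR. Of all genes, 12.2% were called lower and 12.2% higher. The median over the members was -0.97 on the log2 scale, against -0.0023 over all genes. Of the 28, 15 members fell by at least 1, and the share of all genes that fell as far was not computed. The count of higher members was 0 also at an unadjusted p under 0.05 and with DESeq2. The 7 members that did not pass were H2-Ke6, H2-M9, H2-Oa, H2-Ob, H2-Q5, H2-T3 and H2-T24. Of 17 tested class I genes 13 were lower, of 9 class II genes 7, and of the 8 light chain, invariant chain, transport and immunoproteasome genes all 8.

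Between Tg-RKIP and FVB the members did not move one way. With TMM, 10 of 35 were higher and 15 lower, beside 36.8% higher and 37.1% lower among all genes, with a median of -0.081 against 0.0085 over all genes. Of 9 class II genes 6 were higher and none lower in edgeR or DESeq2 (7 and 0 at an unadjusted p under 0.05), whereas of 17 class I genes 1 was higher and 9 were lower. With H2-M9 and H2-Oa set aside, 8 of 33 members were higher and 15 lower, 5 of 8 class II genes were higher, and of 16 class I genes none was higher in edgeR or DESeq2 or at an unadjusted p under 0.05 and 9 were lower. With libraries scaled to their total only, 20 of 35 members were higher and 8 lower, beside 62.6% higher and 17.1% lower among all genes. The 20 include H2-M9 and H2-Oa. The 8 that stayed lower were H2-Ke6, H2-Q4, H2-Q5, H2-Q6, H2-Q7, H2-Q10, H2-T24 and Tap1.

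A direct comparison of the transgenic groups tests whether their differences from FVB differ, as they share the FVB libraries. In it 29 of 35 members were higher in Tg-RKIP hearts and 3 lower, beside 37.9% higher and 36.6% lower among all genes. All 9 class II genes were higher by at least 1, with a median of 1.69 against 0.021 over all genes. The share of all genes higher by as much was not computed. Without H2-M9 and H2-Oa 27 of 33 members were higher and 3 lower, and the other 8 class II genes had a median of 1.61. All 8 light chain, invariant chain, transport and immunoproteasome genes were higher, with a median of 0.60.

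**Figure D2:**
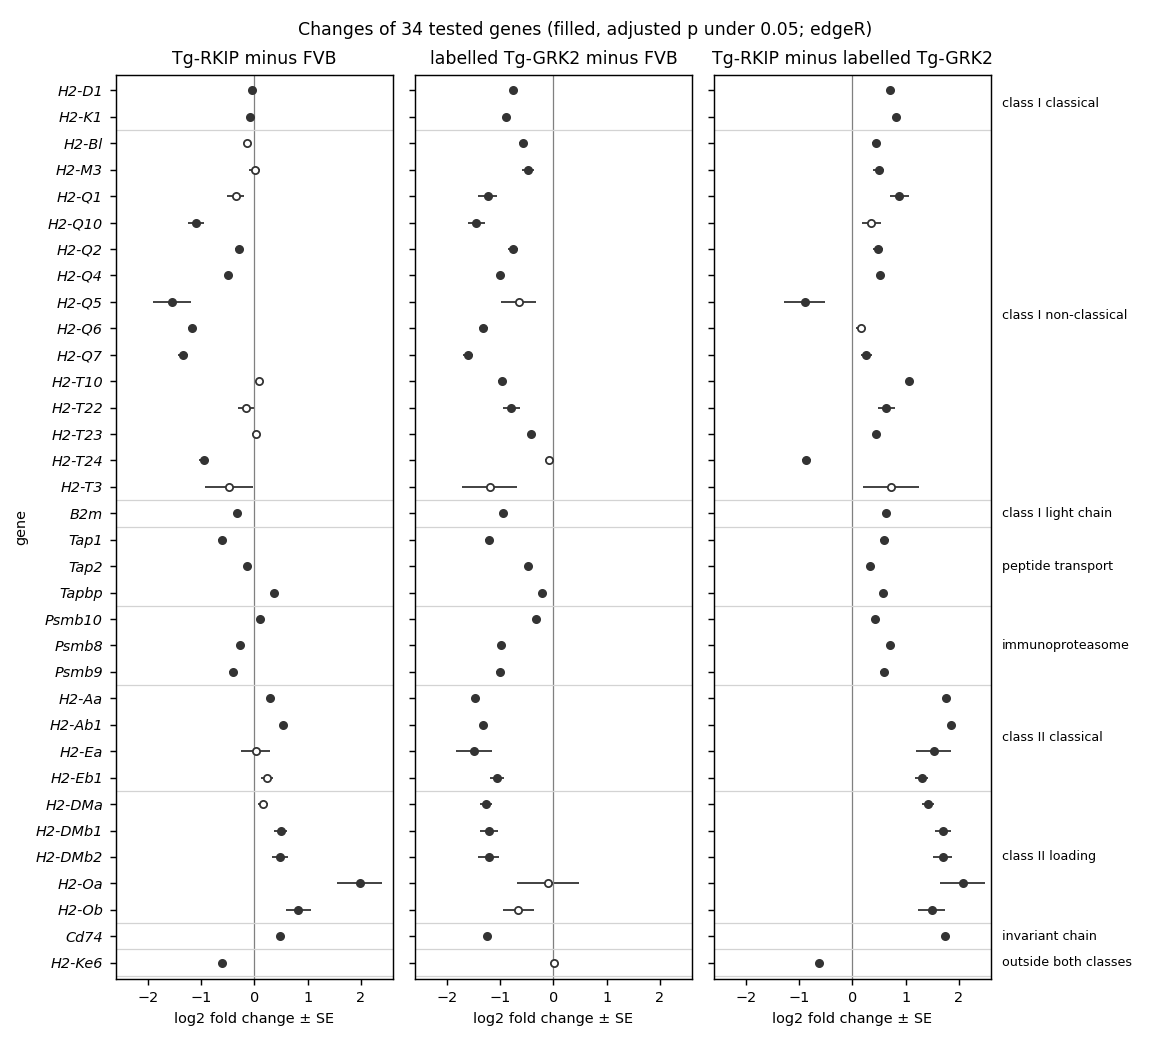
Log2 fold change ± SE (horizontal axis) of 34 tested members by role in the 3 comparisons (filled points, adjusted p under 0.05 from edgeR; open points, above it; H2-M9 is left out for its low reads). Nearly all points of the middle panel lie below 0, the class II genes of the right panel lie between 1.30 and 2.07, and the left panel has class II genes at or above 0 and Q-region class I genes below it.

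The classical class I heavy chains, H2-D1 (chromosome 17, 35481706 to 35486475, plus strand) and H2-K1 (34214991 to 34219321, minus strand), display peptides to CD8 T cells and made up 78.8% ± 0.578 (SD, n = 3) of the class I sum in FVB hearts. H2-D1 was at 366, 363 and 365 TPM in FVB, at 217, 229 and 226 TPM in hearts labelled Tg-GRK2, and at 473, 457 and 475 TPM in Tg-RKIP. H2-K1 was at 259, 253 and 255 TPM in FVB, at 149, 146 and 143 TPM in hearts labelled Tg-GRK2, and at 335, 340.05 and 342 TPM in Tg-RKIP. For both genes the 3 groups were separate, with hearts labelled Tg-GRK2 lowest.

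In hearts labelled Tg-GRK2, H2-D1 fell by 0.76 ± 0.020 (edgeR adjusted p = 2.49e-17) and H2-K1 fell by 0.89 ± 0.024 (edgeR adjusted p = 3.25e-17). In Tg-RKIP against FVB, H2-D1 was at -0.049 ± 0.020 (edgeR adjusted p = 0.0320) and H2-K1 at -0.081 ± 0.023 (edgeR adjusted p = 0.00349) with TMM, but at 0.33 and 0.29 with the library total only and at 0.36 and 0.41 on log2(TPM + 0.1). The H2-D1 call with TMM was lost without Tg-RKIP replicate 1 (edgeR adjusted p = 0.0581) or without Tg-RKIP replicate 2 (edgeR adjusted p = 0.166).

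Non-classical class I genes sit in the Q, T and M regions of the complex, are expressed at lower levels and include ligands of innate-like lymphocytes. Of 25 such genes, 15 were tested. H2-Q4 was the most abundant, at 47.2 ± 0.4998 TPM in FVB, 24.5 ± 0.838 TPM in hearts labelled Tg-GRK2 and 45.3 ± 1.05 TPM in Tg-RKIP (SD, n = 3 each).

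Most Q-region genes were lower in hearts labelled Tg-GRK2 and, with TMM, in Tg-RKIP. Of 7 tested, 6 were lower in hearts labelled Tg-GRK2, with a median of -1.23, beside 12.2% lower of all genes. With TMM 6 were lower in Tg-RKIP, with a median of -1.09, beside 37.1% lower of all genes. Of the latter 6, H2-Q2 turned to 0.088 with the library total only and to 0.13 on log2(TPM + 0.1), and H2-Q4 was at -0.061 (adjusted p = 0.119) on log2(TPM + 0.1) with limma. H2-Q7, which encodes a Qa-2 antigen, was at 10.9, 12.1 and 10.5 TPM in FVB, at 3.36, 3.29 and 3.98 TPM in hearts labelled Tg-GRK2 and at 6.80, 7.39 and 6.41 TPM in Tg-RKIP. In TPM the 3 groups did not overlap, and Tg-RKIP lay between the others. On TMM-normalised counts the transgenic groups overlapped, and their difference of 0.26 ± 0.106 (edgeR adjusted p = 0.0327) was lost without Tg-RKIP replicate 2 (0.16) or without Tg-GRK2 replicate 1 (0.24) or 2 (0.18), and with DESeq2 (adjusted p = 0.0662).

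H2-Q7 fell by 1.60 ± 0.094 in hearts labelled Tg-GRK2 (edgeR adjusted p = 2.99e-11) and fell by 1.34 ± 0.087 in Tg-RKIP (edgeR adjusted p = 6.91e-12). Its neighbour H2-Q6 was at 13.3, 15.4 and 13.6 TPM in FVB, at 6.73, 5.58 and 5.39 TPM in hearts labelled Tg-GRK2 and at 8.77, 8.53 and 7.99 TPM in Tg-RKIP, all 3 groups apart. It fell by 1.31 ± 0.078 in the former (edgeR adjusted p = 3.35e-11) and fell by 1.16 ± 0.073 in the latter (edgeR adjusted p = 3.96e-12). Between the transgenic groups H2-Q6 differed by 0.15 ± 0.086 and did not pass (edgeR adjusted p = 0.119).

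H2-Q10, known for a secreted product of the liver, was at 3.46, 2.68 and 2.45 TPM in FVB, at 1.21, 0.986 and 1.09 TPM in hearts labelled Tg-GRK2 and at 1.98, 2.36 and 2.00 TPM in Tg-RKIP. The FVB and Tg-RKIP libraries lay close to each other in TPM, with no overlap. On counts H2-Q10 fell by 1.45 ± 0.156 in hearts labelled Tg-GRK2 (edgeR adjusted p = 4.07e-07) and fell by 1.09 ± 0.144 in Tg-RKIP (edgeR adjusted p = 6.69e-07).

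H2-Q1 was at 1.99, 1.67 and 1.71 TPM in FVB, at 0.867, 0.762 and 0.775 TPM in hearts labelled Tg-GRK2 and at 1.74, 1.99 and 1.68 TPM in Tg-RKIP, which overlapped with FVB. It fell by 1.23 ± 0.181 in hearts labelled Tg-GRK2 (edgeR adjusted p = 2.27e-05). H2-Q4 was at 46.6, 47.5 and 47.4 TPM in FVB, at 24.4, 23.7 and 25.4 TPM in hearts labelled Tg-GRK2 and at 44.2, 46.3 and 45.2 TPM in Tg-RKIP, and fell by 1.01 ± 0.037 in hearts labelled Tg-GRK2 (edgeR adjusted p = 7.38e-15). For H2-Q1 the transgenic groups were apart, and for H2-Q4 all 3 groups were.

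H2-Q5 was near the limit of what these libraries measure, with 21, 21 and 20 reads in FVB, 10, 19 and 13 reads in hearts labelled Tg-GRK2 and 12, 8 and 7 reads in Tg-RKIP. Reads of Tg-RKIP and FVB did not overlap, and H2-Q5 fell by 1.55 ± 0.356 in Tg-RKIP (edgeR adjusted p = 0.000489). Its TPM values of 0.620, 0.320 and 1.58 in Tg-RKIP and of 1.04, 0.879 and 0.979 in FVB did overlap, so the call rests on the reads.

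Among the T-region genes, H2-T10, a ligand of gamma delta T cells, was at 14.1, 15.2 and 15.5 TPM in FVB, at 8.47, 8.40 and 7.50 TPM in hearts labelled Tg-GRK2 and at 22.3, 23.0 and 21.9 TPM in Tg-RKIP, with no overlap. It was 1.07 ± 0.066 higher in Tg-RKIP than in hearts labelled Tg-GRK2 (edgeR adjusted p = 2.41e-12) and 0.97 ± 0.069 below FVB in the latter. H2-T22, its near copy and also a ligand of gamma delta T cells, H2-T23, which encodes the Qa-1 ligand of inhibitory NK receptors, and H2-Bl were likewise lower in hearts labelled Tg-GRK2, at -0.79, -0.42 and -0.57. In Tg-RKIP against FVB these 4 genes lay between -0.16 and 0.096 and did not pass with TMM, while with the library total only H2-T10, H2-T23 and H2-Bl were called higher.

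H2-T24 went another way. It was at 7.19, 7.74 and 6.46 TPM in FVB and at 6.73, 6.92 and 6.9997 TPM in hearts labelled Tg-GRK2, which overlapped, and at 4.96, 5.06 and 4.51 TPM in Tg-RKIP, below both. It fell by 0.95 ± 0.080 in Tg-RKIP (edgeR adjusted p = 5.72e-10). H2-T3, the thymus leukaemia antigen, held 4 to 21 reads in FVB libraries and passed in no comparison.

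H2-M3, which presents formylated peptides, was at 5.89 ± 0.428 TPM in FVB, 4.36 ± 0.619 TPM in hearts labelled Tg-GRK2 and 7.97 ± 0.555 TPM in Tg-RKIP (SD, n = 3 each), and fell by 0.48 ± 0.114 in hearts labelled Tg-GRK2 (edgeR adjusted p = 0.00319). H2-M9 held 14, 25 and 12 reads in Tg-RKIP libraries, 0, 1 and 0 in FVB and 1, 0 and 1 in hearts labelled Tg-GRK2. It passed the filter through the Tg-RKIP libraries alone and so had to differ. Its 51 reads in Tg-RKIP against 1 in FVB give a ratio per library total of 51.2 (exact 95% interval 8.78 to 2060, counting error only). H2-M11, which was not tested, held 10, 8 and 10 reads in Tg-RKIP, 1, 0 and 0 in FVB and none in hearts labelled Tg-GRK2.

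Class I genes are near copies of one another, and the way the counting divided shared reads is not given in the sources used here. In the reference transcripts of GENCODE M21, 21 of 45 members found there shared over 10% of their 50-base windows, the length of a read, with another gene. This share was 9.63% for H2-K1 and 12.8% for H2-D1. It rose to 26.5% for H2-Q7, 35.0% for H2-Q6, 36.4% for H2-Q4 and H2-Q5, and 50.4% and 53.5% for H2-T10 and H2-T22, so the values of single Q-region genes and of this T-region pair are uncertain. FVB sequences, which differ from the reference at these loci, were not used here.

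B2m, the invariant light chain of all class I molecules, was the most abundant member. It was at 583, 567 and 574 TPM in FVB, at 301, 307 and 315 TPM in hearts labelled Tg-GRK2 and at 603, 629 and 614 TPM in Tg-RKIP. The groups did not overlap, with a wide gap below FVB and a narrow one above it. B2m fell by 0.95 ± 0.023 in hearts labelled Tg-GRK2 (edgeR adjusted p = 2.47e-18), close to the value of H2-K1. In Tg-RKIP it was at -0.32 ± 0.022 with TMM (edgeR adjusted p = 1.73e-11), at 0.056 with the library total only and at 0.098 on log2(TPM + 0.1). Per unit of the class I sum B2m was 0.731 ± 0.0101 in FVB, 0.659 ± 0.0152 in hearts labelled Tg-GRK2 and 0.627 ± 0.0194 in Tg-RKIP (SD, n = 3 each).

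**Figure D3:**
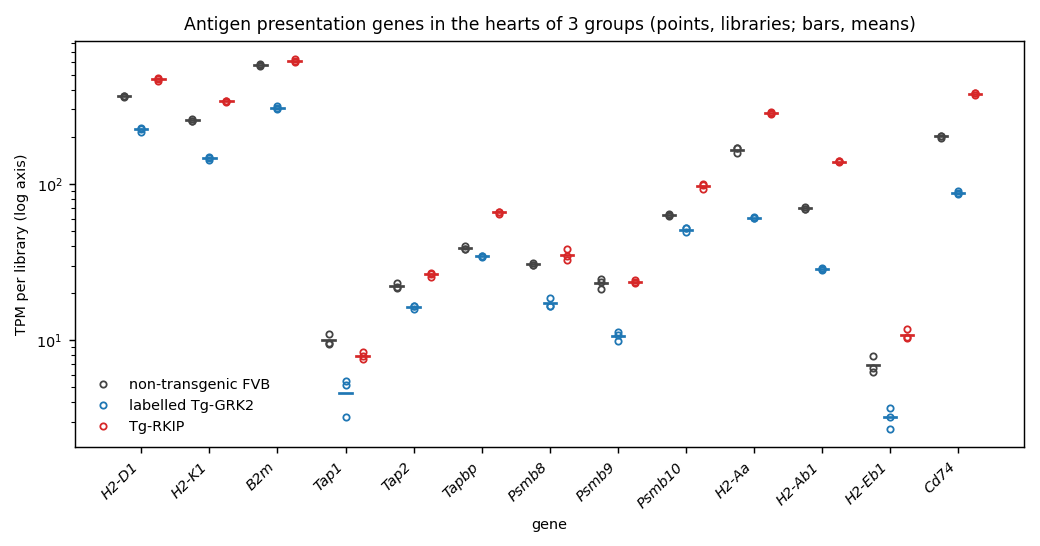
TPM per library on a log axis for 13 members in FVB, hearts labelled Tg-GRK2 and Tg-RKIP (points, libraries; bars, means). Hearts labelled Tg-GRK2 lie lowest for each gene shown, and Tg-RKIP libraries lie above FVB for all but Tap1, which lies below it, and Psmb9, which overlaps with it.

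Peptide transport genes moved unequally. Tap1 was at 9.55, 9.42 and 10.97 TPM in FVB, at 5.13, 5.46 and 3.22 TPM in hearts labelled Tg-GRK2 and at 7.93, 7.60 and 8.36 TPM in Tg-RKIP, with no overlap. It fell by 1.21 ± 0.075 in hearts labelled Tg-GRK2 (edgeR adjusted p = 7.08e-11) and fell by 0.61 ± 0.067 in Tg-RKIP with TMM (edgeR adjusted p = 3.92e-08), where limma on log2(TPM + 0.1) gave -0.32 (adjusted p = 0.0981).

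Tap2, the partner of Tap1 in the transporter, was at 21.6, 22.0 and 23.1 TPM in FVB, at 16.6, 16.6 and 15.8 TPM in hearts labelled Tg-GRK2 and at 26.7, 26.9 and 25.4 TPM in Tg-RKIP. It fell by 0.47 ± 0.038 in hearts labelled Tg-GRK2 (edgeR adjusted p = 5.08e-09) and was at -0.14 ± 0.036 in Tg-RKIP with TMM (edgeR adjusted p = 0.00129) but at 0.23 with the library total only. The ratio of Tap2 to Tap1 was 2.23 ± 0.116 in FVB, 3.31 ± 0.256 in Tg-RKIP and 3.72 ± 1.03 in hearts labelled Tg-GRK2 (SD, n = 3 each). Each library of either transgenic group lay above all FVB libraries in this ratio.

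Tapbp was at 39.9, 38.3 and 38.1 TPM in FVB, at 34.6, 34.6 and 33.9 TPM in hearts labelled Tg-GRK2 and at 64.5, 66.5 and 65.9 TPM in Tg-RKIP. It was the member of this group that was higher in Tg-RKIP under every scaling, by 0.37 ± 0.026 with TMM (edgeR adjusted p = 3.40e-11), and it fell by 0.22 ± 0.028 in hearts labelled Tg-GRK2 (edgeR adjusted p = 5.02e-06).

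Immunoproteasome subunits replace the constitutive catalytic subunits after interferon and favour peptides that fit class I. Psmb8 was at 30.4, 30.1 and 31.0 TPM in FVB, at 16.5, 18.6 and 16.5 TPM in hearts labelled Tg-GRK2 and at 38.4, 32.6 and 34.7 TPM in Tg-RKIP. Psmb9 was at 24.4, 21.3 and 23.4 TPM in FVB, at 9.86, 10.8 and 11.3 TPM in hearts labelled Tg-GRK2 and at 24.2, 23.7 and 23.2 TPM in Tg-RKIP. Hearts labelled Tg-GRK2 lay below all others for both genes, and Tg-RKIP lay above FVB for Psmb8 but overlapped with it for Psmb9.

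Psmb8 fell by 0.98 ± 0.058 (edgeR adjusted p = 3.42e-11) and Psmb9 fell by 1.00 ± 0.073 (edgeR adjusted p = 1.07e-09) in hearts labelled Tg-GRK2. In Tg-RKIP Psmb8 was at -0.27 with TMM and at 0.10 with the library total only, and Psmb9 at -0.41 with TMM and at 0.040 on log2(TPM + 0.1). Psmb10, which lies outside the complex, was at 64.0, 62.7 and 63.2 TPM in FVB, at 52.1, 49.0 and 51.9 TPM in hearts labelled Tg-GRK2 and at 98.8, 92.8 and 100.15 TPM in Tg-RKIP. It fell by 0.32 ± 0.036 in hearts labelled Tg-GRK2 (edgeR adjusted p = 8.51e-07) and was 0.10 ± 0.034 higher in Tg-RKIP (edgeR adjusted p = 0.0112), a call that was lost without FVB replicate 3 (edgeR adjusted p = 0.0822).

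Set against the constitutive subunit that each one replaces, the subunits gave ratios of TPM within a library, which do not depend on how libraries are scaled. Psmb8 per Psmb5 was 0.322 ± 0.0142 in FVB, 0.186 ± 0.0123 in hearts labelled Tg-GRK2 and 0.230 ± 0.0131 in Tg-RKIP (SD, n = 3 each). Psmb9 per Psmb6 was 0.148 ± 0.0136, 0.0751 ± 0.00565 and 0.118 ± 0.00353 in the same order (SD, n = 3 each). Both ratios were lower in every transgenic library than in any FVB library. Psmb10 per Psmb7 was 0.338 ± 0.0126 in FVB, 0.288 ± 0.0111 in hearts labelled Tg-GRK2 and 0.441 ± 0.0136 in Tg-RKIP (SD, n = 3 each), and here Tg-RKIP was the highest group.

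The chains of H2-A were the most abundant class II genes. H2-Aa (chromosome 17, 34501718 to 34506797, minus strand), the alpha chain of H2-A, was at 169, 157 and 169 TPM in FVB, at 60.3, 61.0 and 60.3 TPM in hearts labelled Tg-GRK2 and at 289.6, 280.05 and 286 TPM in Tg-RKIP. Its partner H2-Ab1 (34476663 to 34488393, plus strand) was at 71.3, 68.9 and 68.8 TPM in FVB, at 28.6, 28.9 and 27.9 TPM in hearts labelled Tg-GRK2 and at 139, 139 and 138 TPM in Tg-RKIP. For both chains the groups stood well apart, in the order labelled Tg-GRK2, FVB, Tg-RKIP.

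H2-Aa fell by 1.47 ± 0.027 (edgeR adjusted p = 3.75e-20) and H2-Ab1 fell by 1.31 ± 0.035 (edgeR adjusted p = 1.67e-17) in hearts labelled Tg-GRK2. In Tg-RKIP H2-Aa was 0.29 ± 0.023 higher (edgeR adjusted p = 2.82e-10) and H2-Ab1 0.54 ± 0.028 higher (edgeR adjusted p = 1.55e-13), although H2-Aa was at -0.055 when only its most abundant transcript was counted. The 2 chains together made up 90.3% ± 0.524 (SD, n = 3) of the class II sum in FVB. Their ratio, H2-Aa per H2-Ab1, was 2.37 ± 0.0832 in FVB, 2.13 ± 0.0290 in hearts labelled Tg-GRK2 and 2.06 ± 0.0388 in Tg-RKIP (SD, n = 3 each).

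The H2-E genes were weaker. H2-Eb1 was at 6.23, 7.87 and 6.58 TPM in FVB, at 2.70, 3.20 and 3.70 TPM in hearts labelled Tg-GRK2 and at 10.3, 10.4 and 11.7 TPM in Tg-RKIP, with no overlap. It fell by 1.06 ± 0.134 in hearts labelled Tg-GRK2 (edgeR adjusted p = 3.76e-06), and the difference of 0.24 ± 0.111 between Tg-RKIP and FVB did not pass with TMM (edgeR adjusted p = 0.0575), though it did without FVB replicate 2 (0.31, edgeR adjusted p = 0.0359).

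H2-Ea was at 1.36, 1.68 and 2.13 TPM in FVB, at 0.611, 0.212 and 0.901 TPM in hearts labelled Tg-GRK2 and at 2.02, 2.45 and 2.10 TPM in Tg-RKIP, which overlapped with FVB. It fell by 1.49 ± 0.337 in hearts labelled Tg-GRK2 (edgeR adjusted p = 0.00200). H2-Eb2 held 0 to 7 reads a library and was not tested.

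The loading genes H2-DMa, H2-DMb1 and H2-DMb2 encode the chains of H2-DM. H2-DMa was at 8.55, 8.57 and 9.38 TPM in FVB, at 4.48, 3.98 and 3.36 TPM in hearts labelled Tg-GRK2 and at 12.7, 11.8 and 13.9 TPM in Tg-RKIP. H2-DMb1 was at 4.92, 4.47 and 4.33 TPM, at 2.44, 2.88 and 1.36 TPM and at 8.09, 8.92 and 7.70 TPM in the same order. H2-DMb2 was at 2.32, 2.81 and 2.66 TPM, at 1.19, 0.886 and 1.38 TPM and at 4.11, 5.46 and 4.87 TPM. In TPM all 3 genes had the same order of groups as H2-Aa and no overlap.

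On counts H2-DMa fell by 1.26 ± 0.114 (edgeR adjusted p = 2.94e-08), H2-DMb1 fell by 1.21 ± 0.162 (edgeR adjusted p = 7.22e-06) and H2-DMb2 fell by 1.21 ± 0.192 (edgeR adjusted p = 5.50e-05) in hearts labelled Tg-GRK2. In Tg-RKIP H2-DMa was at 0.16 ± 0.093 and did not pass with TMM (edgeR adjusted p = 0.132), H2-DMb1 was 0.49 ± 0.127 higher (edgeR adjusted p = 0.00154) and H2-DMb2 0.48 ± 0.152 higher (edgeR adjusted p = 0.00799). The H2-DMb2 call was lost without Tg-RKIP replicate 2 (0.37, edgeR adjusted p = 0.0641), and on the most abundant transcript alone neither H2-DMb1 nor H2-DMb2 passed (edgeR adjusted p = 0.0524 and 0.0689). The latter 2 genes share 22.7% and 25.9% of their 50-base windows with other genes, mostly with each other.

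H2-O, made from H2-Oa and H2-Ob, restrains H2-DM and is typical of B cells. H2-Oa held 7, 3 and 3 reads in FVB, 5, 5 and 3 in hearts labelled Tg-GRK2 and 22, 21 and 24 in Tg-RKIP, and H2-Ob held 20, 21 and 21, then 15, 11 and 16, then 53, 50 and 39 reads. Tg-RKIP libraries lay above all others for both. H2-Oa passed the filter through the Tg-RKIP libraries alone, so its log2 difference of 1.98 from FVB is given as a description. H2-Ob was 0.83 ± 0.240 higher in Tg-RKIP than in FVB (edgeR adjusted p = 0.00391). Neither passed between hearts labelled Tg-GRK2 and FVB, at -0.093 ± 0.582 and -0.66 ± 0.292.

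Cd74, the invariant chain that guards the class II groove, was at 204, 197 and 204 TPM in FVB, at 86.9, 86.4 and 90.2 TPM in hearts labelled Tg-GRK2 and at 383, 371 and 381 TPM in Tg-RKIP. It followed the order of H2-Aa, without overlap. It fell by 1.25 ± 0.026 in hearts labelled Tg-GRK2 (edgeR adjusted p = 3.34e-19) and was 0.48 ± 0.023 higher in Tg-RKIP (edgeR adjusted p = 3.36e-14). Per unit of the class II sum Cd74 was 0.775 ± 0.00643 in FVB, 0.872 ± 0.0306 in hearts labelled Tg-GRK2 and 0.814 ± 0.00711 in Tg-RKIP (SD, n = 3 each).

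H2-Ke6, which shares only the name and the place with the H2 genes, was at 65.7, 72.5 and 62.7 TPM in FVB, at 68.3, 70.4 and 66.2 TPM in hearts labelled Tg-GRK2 and at 60.2, 61.7 and 59.3 TPM in Tg-RKIP. It differed by 0.011 ± 0.045 between hearts labelled Tg-GRK2 and FVB (edgeR adjusted p = 0.895) and fell by 0.61 ± 0.047 in Tg-RKIP (edgeR adjusted p = 1.26e-10). Of its 50-base windows 70.5% also lie in the read-through transcript Gm20427, so reads could be divided between them.

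**Figure D4:**
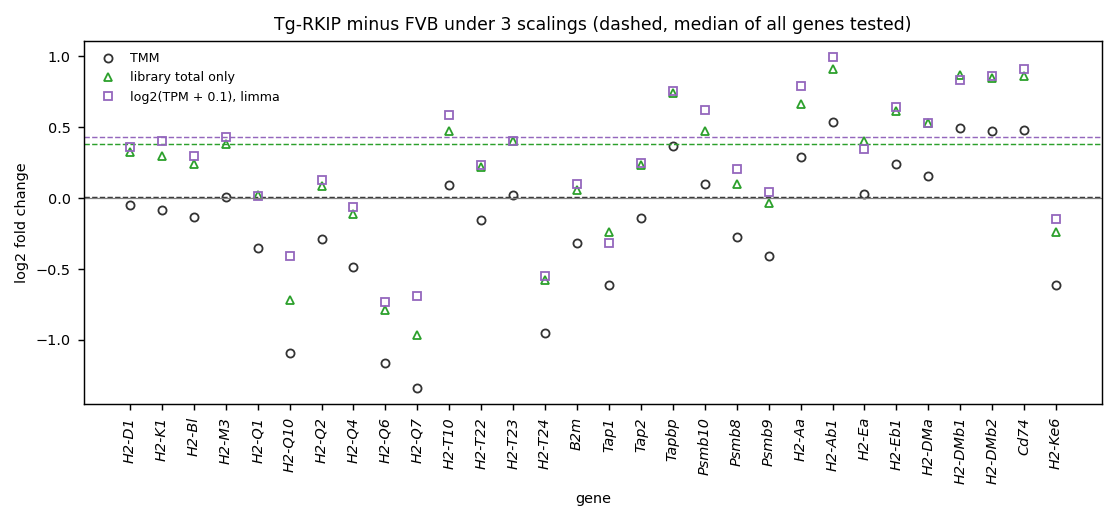
Log2 fold change of 30 members between Tg-RKIP and FVB under TMM, with libraries scaled to their total only and on log2(TPM + 0.1) with limma (dashed lines, median of all genes tested, 0.0085, 0.38 and 0.43). H2-D1, H2-K1, B2m and Tap2 lie below 0 with TMM and above 0 under the other scalings, while the order of the members stays similar.

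The regulators of these genes were examined as a list of 19, of which 18 were tested. NLRC5 is the transactivator of class I genes and CIITA that of class II genes, and IRF1 carries the interferon signal to both. Nlrc5 held 161, 190 and 145 reads in FVB, 70, 53 and 70 in hearts labelled Tg-GRK2 and 63, 52 and 34 in Tg-RKIP, so that all transgenic libraries were below all FVB libraries. It fell by 1.45 (edgeR adjusted p = 2.30e-07) and by 2.10 (edgeR adjusted p = 8.32e-11) on counts. Its TPM values, of 2.34, 1.62 and 3.08 in FVB, 0.568, 1.91 and 0.842 in hearts labelled Tg-GRK2 and 1.66, 1.09 and 1.23 in Tg-RKIP, overlapped, and limma on log2(TPM + 0.1) gave -1.14 (adjusted p = 0.0619) and -0.76 (adjusted p = 0.0864).

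Ciita held 90, 99 and 96 reads in FVB, 31, 52 and 49 in hearts labelled Tg-GRK2 and 88, 149 and 91 in Tg-RKIP. Only hearts labelled Tg-GRK2 were apart from FVB. Ciita fell by 1.21 there (edgeR adjusted p = 2.10e-05) and was at -0.18 in Tg-RKIP (edgeR adjusted p = 0.292).

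Irf1 was at 20.3, 19.7 and 20.9 TPM in FVB, at 14.4, 14.9 and 15.3 TPM in hearts labelled Tg-GRK2 and at 23.4, 23.6 and 24.0 TPM in Tg-RKIP. It fell by 0.51 in hearts labelled Tg-GRK2 (edgeR adjusted p = 1.95e-08) and was at -0.19 in Tg-RKIP with TMM but at 0.19 with the library total only. Ifng, the gene of interferon gamma, held 0 to 4 reads a library and was not tested. Of the 18 regulators 6 were higher and 8 lower in Tg-RKIP with TMM, 10 higher and 5 lower with the library total only, and 1 was higher and 6 were lower in hearts labelled Tg-GRK2. The Tg-RKIP counts stand beside 36.8% higher and 37.1% lower of all genes with TMM and 62.6% and 17.1% with the library total. In Tg-RKIP the list was thus close to all genes in share. The counts of hearts labelled Tg-GRK2 stand beside 12.2% higher and 12.2% lower of all genes. Socs1, a brake on interferon signalling, was 1.06 higher in Tg-RKIP than in hearts labelled Tg-GRK2 (edgeR adjusted p = 0.00132).

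Other parts of the presentation pathways gave a mixed picture. Of 11 partners of class I presentation, among them the chaperones Calr, Canx and Pdia3 and the constitutive proteasome subunits, none was higher and 6 were lower in hearts labelled Tg-GRK2 in edgeR, with a median of -0.13 (2 higher at an unadjusted p under 0.05 and 1 with DESeq2). Of all genes 12.2% were higher and 12.2% lower there. In Tg-RKIP 3 partners were higher and 8 lower with TMM, beside 36.8% higher and 37.1% lower of all genes. With the library total only 7 were higher and 3 lower, close to the share of all genes, 62.6% higher and 17.1% lower. Of 8 genes of endosomal class II loading, 1 was higher and 1 lower in hearts labelled Tg-GRK2, with a median of 0.0031. The shares of all genes just given apply to this list too. In Tg-RKIP 6 of these 8 were higher and 1 lower with TMM, and 8 and 0 with the library total only. They included Ctss, the protease that trims the invariant chain, which was 1.11 higher (edgeR adjusted p = 1.25e-15), and Ifi30, the lysosomal thiol reductase, which was 1.12 higher (edgeR adjusted p = 5.96e-13).

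Markers of the cells that use class II genes moved differently in the 2 transgenic groups. In bulk hearts fewer cells of a type and less RNA per cell cannot be told apart. In Tg-RKIP against FVB 10 of 11 macrophage markers were higher and 1 lower, with summed levels of 850.0 to 855 TPM against 333 to 343.5 TPM. Beside the Tg-RKIP marker counts with TMM, here and in the next paragraph, stand 36.8% higher and 37.1% lower of all genes. The TPM sums also carry the shift of all genes, with a median of 0.43 on log2(TPM + 0.1). Of 9 dendritic cell markers 7 were higher and 1 lower, at 48.3 to 50.0 TPM against 15.6 to 17.4 TPM. All 7 B cell markers and all 7 tested T cell markers were higher, at sums of 8.02 to 9.16 TPM against 1.15 to 1.55 TPM and of 7.54 to 11.7 TPM against 3.07 to 3.17 TPM. Of these, 3 dendritic cell, 3 B cell and 5 T cell markers passed the filter through the Tg-RKIP libraries alone, so the filter favoured a higher value there, and without them 4 of 6, 4 of 4 and 2 of 2 were higher. With limma on log2(TPM + 0.1), whose filter keeps fewer weak genes, 4 dendritic cell, 2 B cell and 3 T cell markers were called higher. On that scale 66.3% of all genes were called higher.

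These shifts ran beside the higher class II genes of Tg-RKIP hearts, and their part in the result was not tested. Of 3 tested NK cell markers 2 were higher, but all 3 passed the filter through the Tg-RKIP libraries alone, and 3 of 6 were too weak for a test. Of 9 endothelial markers 5 were higher and 4 lower, at 668 to 692.5 TPM against 386 to 388 TPM, and all 6 fibroblast markers were higher, at 2228 to 2231 TPM against 858 to 891 TPM. With TMM 8 of 9 cardiomyocyte markers were lower and none higher in edgeR or DESeq2 or at an unadjusted p under 0.05. With the library total only 7 were lower and 2 higher, beside 17.1% lower and 62.6% higher of all genes.

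In hearts labelled Tg-GRK2 the macrophage and dendritic cell marker sums did not lie below FVB as the class II sum did. Summed macrophage markers were at 373 to 388 TPM against 333 to 343.5 TPM in FVB, and 5 of 11 were called higher and 1 lower. Beside the edgeR marker counts of this comparison, here and in the next paragraph, stand 12.2% higher and 12.2% lower of all genes. Dendritic cell markers were at 15.9 to 17.0 TPM against 15.6 to 17.4 TPM, and none of the 9 passed in either direction in edgeR or DESeq2 (1 lower and 0 higher at an unadjusted p under 0.05). B cell markers, weak in both groups, were at 1.86 to 2.75 TPM against 1.15 to 1.55 TPM. Of the 7, 4 were called higher in edgeR and 3 with DESeq2. Limma on log2(TPM + 0.1) kept 2 of them and called 0.

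T cell markers were at 2.20 to 2.38 TPM against 3.07 to 3.17 TPM and NK cell markers at 1.15 to 1.56 TPM against 2.10 to 2.59 TPM, without overlap, but none of the 7 and 3 tested genes passed in edgeR or DESeq2. At an unadjusted p under 0.05, 4 T cell markers and 0 NK cell markers were lower and 0 higher, and the T cell markers had a median of -0.87. Endothelial markers were at 389 to 399 TPM against 386 to 388 TPM. Fibroblast markers were at 948 to 959.6 TPM against 858 to 891 TPM, with 4 of 6 called higher, and cardiomyocyte markers had 3 higher and 6 lower of 9.

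A group of thymocyte markers, fixed to look for thymus in the dissected tissue, was too weak for any test, with sums of at most 0.0958 TPM in any library and Rag2 at 0 in all. Airway epithelial genes set the groups apart. Their sum ranged from 0.284 to 0.516 TPM across FVB libraries, from 87.9 to 94.5 TPM across Tg-RKIP libraries and from 189.7 to 199.8 TPM in hearts labelled Tg-GRK2, and Scgb1a1, Scgb3a2, Bpifa1, Sftpc and Sftpa1 were at 0 in all FVB libraries. The part of airway transcripts in the values of the MHC genes was not tested.

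**Figure D5:**
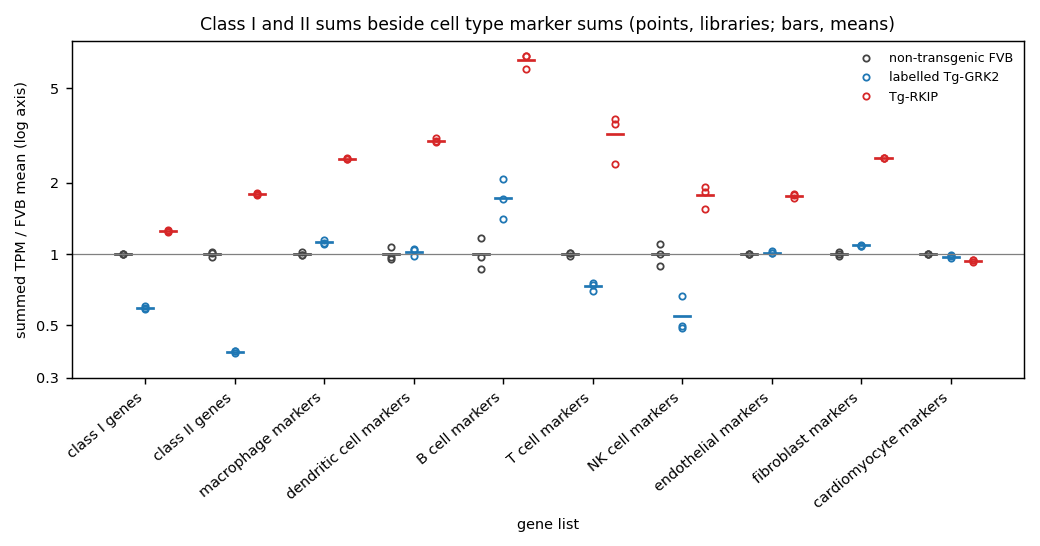
Summed TPM of class I genes, class II genes and 8 marker lists in each library, divided by the FVB mean (log axis; points, libraries; bars, means). In hearts labelled Tg-GRK2 the class II sum lies at 0.387 of FVB while macrophage and dendritic cell marker sums lie at 1.12 and 1.02, and in Tg-RKIP the class II sum lies at 1.79 beside marker sums of 2.53 and 3.01.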

How the data were processed

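RNA of whole hearts was sequenced as single reads of 50 bases. The authors deposited read counts per transcript and length-corrected TPM values per transcript for 9 libraries. Submitters' processing notes name build GRCm39, and the aligner and counter are not given in the sources used here. Deposited counts and TPM were summed by gene name over 127558 transcripts. Library totals were 25458108 to 33447654 reads, and low-read genes are limited by counting error.

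Counts were tested with edgeR 4.0.16 (R 4.3.3), by quasi-likelihood with TMM scaling, filterByExpr and all 9 libraries in 1 fit, with Benjamini-Hochberg adjustment over 15504 genes and a threshold of 0.05. Alternatives were DESeq2 1.42.0, limma 3.58.1 on log2(TPM + 0.1) or, with another pseudocount, log2(TPM + 1) (genes that reached 1 TPM in 3 libraries or more), other scalings and filters, the most abundant transcript, no mitochondrial genes, 2 groups only, a replicate block and leaving out each library. The same edgeR steps were tested on simulated data. With 200 genes changed, of those changed by 0.5 on the log2 scale 83.5% were recovered for Tg-RKIP against FVB, 69.5% for Tg-GRK2 against FVB and 77.7% for Tg-RKIP against Tg-GRK2. Of those changed by 1, 88.3%, 87.4% and 91.6% were recovered. False calls numbered 15 among 15234 genes, 12 among 15233 and 14 among 15257.

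Every tested member is named. Values in each library are given for the main members and for called members with a log2 change of 1 or more. Of the context lists, Nlrc5, Ciita and Irf1 and genes past the threshold by at least 1 could be named, and Psmb5, Psmb6, Psmb7, Calr, Canx, Pdia3, Socs1 and Ifng were named as partners or regulators. Members and lists were chosen with earlier results of these data known. Counts of 2 libraries of a group differed by 1.24 to 1.54 times the sampling noise, so none was a copy of another. The spread within groups beyond counting error, as estimated by edgeR over all genes, was 2.86%. These values cannot tell libraries of separate hearts from repeated libraries of the same RNA, and the p-values are limited in the same way. The values of 1 listed regulator are not reported here.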

Additional observations from a re-analysis of the deposited data

Results flagged for a closer look

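Members were flagged where all 3 comparisons were past the threshold and the 2 differences from FVB had opposite directions. This held for 7 members, each higher in Tg-RKIP and lower in hearts labelled Tg-GRK2. The share of all genes that meet this rule was not computed, so the count has no background to be set against. The size of the difference was taken from the direct comparison of Tg-RKIP with hearts labelled Tg-GRK2, since both differences share the FVB libraries. On the log2 scale it was 1.73 for Cd74, 1.76 for H2-Aa, 1.85 for H2-Ab1, 1.70 for H2-DMb1 and 1.69 for H2-DMb2, all of the class II pathway. It was 0.58 for Tapbp and 0.42 for Psmb10, of the class I pathway. All 7 passed in edgeR because the rule required it, with adjusted p-values from 1.96e-23 for Cd74 to 1.68e-08 for H2-DMb2. These p-values are thus no separate test of the flagged members. The Tg-RKIP side was at -0.055 for H2-Aa and -0.059 for Psmb10 when only the most abundant transcript was counted, and its call was lost without Tg-RKIP replicate 2 for H2-DMb2 (0.37) and without FVB replicate 3 for Psmb10 (0.075).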

How the results depend on the processing

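Between hearts labelled Tg-GRK2 and FVB none of the 28 called members changed direction under any alternative, and 7 lost their call on the most abundant transcript alone. Between Tg-RKIP and FVB the scaling mattered, and the cause was not tested beyond the shift of the median given in the report. With the library total only, with limma on log2(TPM + 0.1), with limma on log2(TPM + 1) and on the most abundant transcript, 20, 18, 18 and 4 members were higher and 8, 5, 5 and 8 lower, beside 10 and 15. Of all genes, 62.6%, 66.3%, 66.4% and 27.6% were higher and 17.1%, 14.6%, 14.5% and 29.8% lower. The 20 members with the library total include H2-M9 and H2-Oa. Log2 fold changes that turned positive under the first 3 were 0.056, 0.098 and 0.098 for B2m, 0.24, 0.29 and 0.29 for H2-Bl, 0.33, 0.36 and 0.36 for H2-D1, 0.29, 0.41 and 0.40 for H2-K1, 0.088, 0.13 and 0.12 for H2-Q2, 0.10, 0.20 and 0.20 for Psmb8, and 0.23, 0.24 and 0.24 for Tap2. Psmb9 was at 0.040 and 0.039 with limma. H2-T22 (0.22, 0.24 and 0.21) and H2-Q1 (0.023, 0.012 and 0.0083) also turned positive but were called under none of these or with TMM. On the most abundant transcript H2-Aa was at -0.055, H2-K1 at 0.048 and Psmb10 at -0.059. Over all genes limma on log2(TPM + 1) called 8956 higher and 1960 lower.

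The class I fold was 0.912 (TMM counts), 1.275 (most abundant transcript) and 0.975 (no mitochondrial genes) for Tg-RKIP against FVB, 1.597, 2.137 and 1.643 for Tg-RKIP against hearts labelled Tg-GRK2, and 0.571 on TMM counts for the latter against FVB. The class II fold was 1.29, 1.48 and 1.396, then 3.39, 3.66 and 3.61 in the same order, and 0.381 (TMM counts) and 0.404 (most abundant transcript) for hearts labelled Tg-GRK2 against FVB.

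Leaving out 1 library gave class I folds of 1.244 to 1.256, 0.5895 to 0.5961 and 2.09 to 2.12 and class II folds of 1.76 to 1.80, 0.381 to 0.391 and 4.59 to 4.64 (Tg-RKIP against FVB, labelled Tg-GRK2 against FVB, Tg-RKIP against labelled Tg-GRK2). Members called were 10 to 12 higher and 15 to 16 lower, 0 and 28 to 29, and 29 to 30 and 2 to 3. H2-M9 and H2-Oa were not set aside in these counts. Calls were gained for H2-Bl without Tg-RKIP replicate 1 (-0.21) or FVB replicate 1 (-0.19), for H2-Q1 without Tg-RKIP replicate 2 (-0.46), for H2-T3 without FVB replicate 3 (-1.57), and between the transgenic groups for H2-Q10 without Tg-RKIP replicate 3 (0.42) and H2-Q6 without Tg-GRK2 replicate 1 (0.25). Between the transgenic groups H2-Q5 lost its call without Tg-RKIP replicate 2 (-0.69) or 3 (-0.82) or Tg-GRK2 replicate 2 (-0.57), and H2-Q7 without Tg-RKIP replicate 2 (0.16) or Tg-GRK2 replicate 1 (0.24) or 2 (0.18). Replicate numbers are shared between groups but did not pair the libraries (r of same-numbered deviations -0.0492 to 0.0516). With the replicate block 10 members were higher and 15 lower, 0 and 28, and 29 and 2, again with H2-M9 and H2-Oa not set aside.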

Other observations

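Genes of class I form that lie outside the complex were higher in Tg-RKIP hearts. All 6 tested of 9 were higher than in FVB and 0 lower in edgeR (5 and 0 with DESeq2, 6 and 0 at an unadjusted p under 0.05), with a median of 0.64. Of all genes 36.8% were higher and 37.1% lower in edgeR with TMM. Procr, the endothelial protein C receptor, was at 15.1 ± 0.205 TPM in Tg-RKIP, 2.70 ± 0.102 TPM in hearts labelled Tg-GRK2 and 2.52 ± 0.275 TPM in FVB (SD, n = 3 each), a log2 difference of 2.19 from FVB. Ulbp1, a ligand of the NKG2D receptor, was higher by 1.91. In hearts labelled Tg-GRK2 1 of the 6, Mr1, was lower, at -0.20 (edgeR adjusted p = 0.0180), and 0 were lower with DESeq2. Of all genes 12.2% were lower there in edgeR.

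Neighbours of the H2- genes on chromosome 17 were examined as a list of 33, of which 31 were tested. In Tg-RKIP 21 were higher and 2 lower with TMM, beside 36.8% and 37.1% of all genes, and 30 and 0 with the library total only in edgeR, beside 62.6% and 17.1% of all genes. C4b, a complement component, was at 132.8 ± 1.40 TPM in Tg-RKIP, 23.9 ± 1.37 TPM in hearts labelled Tg-GRK2 and 18.05 ± 0.275 TPM in FVB (SD, n = 3 each). It was 2.07 higher in Tg-RKIP and 0.38 higher in hearts labelled Tg-GRK2 (edgeR adjusted p = 6.07e-24 and 6.39e-09). Leukocyte genes of the list, Ltb (2.44), Lst1 (1.90) and Aif1 (1.05), were higher in Tg-RKIP and did not pass between hearts labelled Tg-GRK2 and FVB. Lta, with 21, 20 and 15 reads in Tg-RKIP against 6, 8 and 5 in FVB, passed the filter through the Tg-RKIP libraries alone and so had to be higher, and without it 20 of 30 neighbours were higher with TMM.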
